A study of Mus musculus with 26 samples.

Results

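The comparison is between 1-cell mouse embryos cultured with a c-Myc inhibitor and the control embryos of the same title series. All samples labelled with either condition in that series were taken, which gives 14 of the 26 libraries, 7 treated and 7 control. The treated embryos were of strain B6D2F1 × B6D2F1, made by in vitro fertilisation, moved into the inhibitor at 2 h after sperm and oocytes were mixed and kept in it for 10 h, and labelled 10 h old. The controls were of the same cross and labelled age, are labelled untreated, and no vehicle is named for them. The compound is 5-(4-ethylbenzylidene)-2-thioxothiazolidin-4-one. The labels state no dose for it, and the times in the protocol add up to more than the labelled age. A further 12 libraries, 4 each of alpha-amanitin embryos, of control embryos with their own title numbers and of MII oocytes (unfertilised eggs halted in meiosis), share no sample with this comparison and serve here as an outside measure of each gene. The alpha-amanitin embryos were labelled with 100 µg/ml of that drug, a treatment start of 1 h and a duration of 10 h. They and their controls were labelled 10 h old. RNA was amplified from directly lysed cells with a total RNA kit for very small inputs, and the values are raw read counts per gene.

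As background, c-Myc is a transcription factor that pairs with Max and binds the DNA letters CACGTG, the E-box, in promoters of genes for ribosome production, translation and metabolism. The inhibitor is a thiazolidinone that keeps c-Myc from pairing with Max. The mouse embryo starts life with RNA stored by the growing oocyte, degrades much of that store around meiosis and fertilisation, and begins to transcribe its own genome at low levels in the 1-cell stage.

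The 14 libraries held 20566278 to 27266040 counts, so 3 counts, the limit that a count of 0 allows, came to 0.110 to 0.146 CPM per library, where CPM are counts as a share of the library total. The first principal component of log2 CPM held 13.3% of the variance and separated the groups, with scores of 16.3 to 58.5 in treated and -66.3 to -8.71 in control libraries. The median Spearman correlation with the other libraries of a library's own group was 0.946 to 0.957. All 14 markers of oocyte and 1-cell embryo had counts in both groups. Cumulus and granulosa markers summed to 8.53 to 23.8 CPM in treated and 8.61 to 47.8 CPM in control libraries, but 61.8% of this was Cyp19a1. Blood markers summed to at most 0.0784 and 0.928 CPM in treated and control libraries, with the 4 haemoglobin genes at 0. The sperm list summed to 338 to 557 CPM in treated and 267 to 368 CPM in control libraries, but 97.0% of this was Odf2, and 8 of its 14 genes, among them Prm1 and Tnp1, were at 0. CPM are shares of a library, so a loss of other RNA and a gain of a named RNA cannot be told apart, nor can fewer cells and less RNA per cell. The labels name no donors, pools or culture days, so the spread between libraries may be technical.

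Transcripts of the inhibitor's target were near the floor. Myc had no count in the 7 treated libraries, which together allow up to 0.0180 CPM, and counts in 2 of 7 control libraries (mean 0.109 CPM). Mycn, its relative, had no count in treated and counts in 3 of 7 control libraries (mean 0.193 CPM), and both genes fell below the filter for testing. Max, the partner, was at 175, 197 and 225 CPM (lowest, median and highest) in treated and 166, 199 and 226 CPM in control libraries, and was not called (log2 fold change 0.01, SE 0.09, adjusted p = 0.98). The compound acts on the proteins, so these levels do not test whether it worked.

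Treated embryos differed from controls by many moderate rises and by smaller falls. Of 13003 genes tested by edgeR's quasi-likelihood test with Benjamini-Hochberg adjustment, 887 were higher (6.82%) and 531 lower (4.08%) at an adjusted p under 0.05. The median log2 fold change was 0.75 among the higher genes and -0.41 among the lower ones, and 286 genes (2.2%) were at least 2-fold higher while 19 (0.146%) were at least 2-fold lower. The lower genes were the more abundant, with a median level of 152 CPM over the 14 libraries, against 67.4 CPM for the higher genes and 15.6 CPM for all genes tested. The count of lower genes depended on the model: it was 279 with the replicate number as a block, 336 in the same 12 libraries without it, and 859 with DESeq2. In 1 fit of all 5 groups, with 16319 genes tested, 266 genes were higher and 115 lower.

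The genes with the smallest p among the rises included genes of the secretory pathway and the cell surface. Fat1, a giant protocadherin (chromosome 8, 44935447 to 45052257, GRCm38), had 570, 703 and 937 CPM (lowest, median and highest) in treated and 176, 195 and 230 CPM in control libraries (log2 fold change 1.91, SE 0.10, edgeR adjusted p = 3.7e-12). Every treated library lay above every control library. The naming rule required this of the 11 genes of the upper panel in the plot of named genes. Of the 13003 genes, 368 had this pattern (2.83%). Furin, the protease that matures many secreted proteins in the Golgi (chromosome 7, 80388585 to 80405436), had 408, 464 and 532 CPM in treated and 112, 130 and 170 CPM in control libraries. Its log2 fold change was 1.77 (SE 0.09, edgeR adjusted p = 6.2e-12). Ttyh3, a membrane protein of the tweety family, was 3.83-fold higher, and Lamc1, the laminin gamma-1 chain of basement membranes, rose by 1.67 on the log2 scale. Gdf9, the growth factor by which the oocyte instructs its follicle (chromosome 11, 53431023 to 53437904), had 1657, 1753 and 2406 CPM in treated and 310, 370 and 601 CPM in control libraries, 4.75-fold higher by the fit. Each treated library was above each control library by a wide margin.

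The other rises by the rule covered sugar addition, guidance receptors and RNA handling. Alg10b, the glucosyltransferase that finishes the sugar tree for N-glycosylation (chromosome 15, 90224311 to 90233471), had 258, 316 and 414 CPM in treated and 66.6, 92.3 and 107 CPM in control libraries. That was 1.84 higher on the log2 scale (SE 0.11, edgeR adjusted p = 7.9e-11). Plxna1, a semaphorin receptor, rose by 1.54 and Dse, an epimerase that makes dermatan sulfate, by 2.44 on the log2 scale. Lsm14b, an RNA-binding protein of stored messenger particles, had 1728, 1923 and 2000.2 CPM in treated and 482, 657 and 957 CPM in control libraries (log2 fold change 1.47, SE 0.10, edgeR adjusted p = 5.9e-10). Ccnyl1, a cyclin Y-like protein, and Atg16l1, which helps to form autophagosomes, rose by 1.84 and 1.93. No predicted gene had to be passed over in either direction.

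The falls with the smallest p were each under 2-fold. Dnaja1, a cochaperone of Hsp70 (chromosome 4, 40722150 to 40737149), had 247, 328 and 387 CPM in treated and 426, 498 and 525 CPM in control libraries (log2 fold change -0.62, SE 0.09, edgeR adjusted p = 1.7e-05). Ssb, the La protein that binds new transcripts of RNA polymerase III (chromosome 2, 69861562 to 69871846), had 723, 989 and 1118 CPM in treated and 1286, 1399.8 and 1508 CPM in control libraries. This fall came to -0.56 on the log2 scale (SE 0.08, edgeR adjusted p = 4.1e-05). Suz12, a subunit of the Polycomb complex PRC2 (chromosome 11, 79993106 to 80034123), had 528, 575 and 657 CPM in treated and 736, 811 and 859 CPM in control libraries (log2 fold change -0.44, SE 0.07, edgeR adjusted p = 4.4e-05). The naming rule required that the groups not overlap for these genes, as held for 139 of the 13003 genes in this direction (1.07%). The gap between the groups was narrow against the gap for the rises. Terf1, which coats telomeres, fell by 0.59 on the log2 scale, Ubl3, a ubiquitin-like protein, by 0.56, Rbm7, an adaptor of nuclear RNA decay, by 0.72, and Cwf19l2, a splicing-related protein, by 0.56. Sfr1, a recombination factor, fell by 0.41, Kpna3, an importin, by 0.57, Rnf4, a ligase for SUMO-tagged proteins, by 0.45, Pla2g4c, a phospholipase, by 0.51, and Itga9, an integrin chain, by 0.59. The 12 genes of the lower panel and the 11 of the upper one kept their calls in every alternative fit that tested them.

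**Figure D1:**
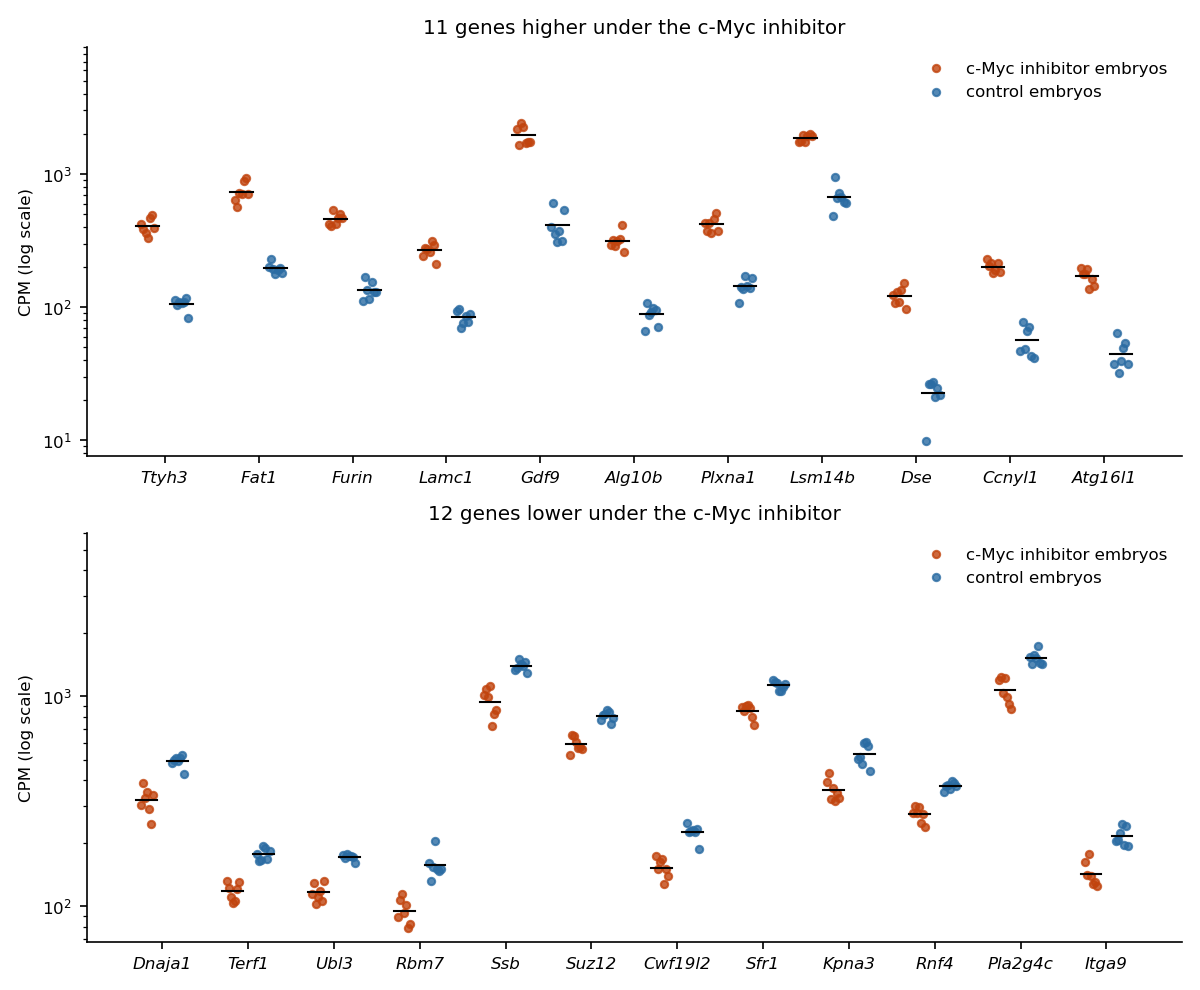
Level of 11 higher (top) and 12 lower (bottom) genes with the smallest p by the naming rule, in CPM on a log scale, with 1 point per library, c-Myc inhibitor embryos to the left of control embryos for each gene, and a black line at each group's mean (n = 7 each). The naming rule required groups of points that do not overlap. The vertical gaps are wider in the top panel, where Gdf9 reaches 2406 CPM in a treated library against at most 601 CPM in controls.

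Higher genes under the inhibitor were mostly genes whose RNA is lower in the 1-cell embryo than in the oocyte. This was read from the second title series, in which 234 of 13133 genes tested were lower (1.78%) and 146 higher (1.11%) in the 4 control embryo than in the 4 MII oocyte libraries (edgeR, Benjamini-Hochberg adjusted p under 0.05). Of the 883 genes higher under the inhibitor that were tested in both fits, 767 (86.9%) had a lower mean in embryo than in oocyte, against 51.9% of all 12280 genes tested in both. Among them 159 (18.01%) were lower in embryo than in oocyte by the test and 0 were higher, against 1.91% and 1.19% of all genes, and their median embryo-over-oocyte log2 fold change was -0.76, against -0.03. Of the 282 genes at least 2-fold higher, 271 (96.1%) had the lower mean in the embryo. Genes lower under the inhibitor had the other pattern: 163 of 529 (30.8%) had a lower mean in embryo than in oocyte, 44 (8.32%) were higher in embryo by the test and 4 were lower.

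Read from the other side, of the 234 genes lower in embryo than in oocyte, 159 (67.9%) were higher under the inhibitor and 4 lower, with a median log2 fold change of 0.74. Of the 146 genes higher in embryo than in oocyte, 0 were higher and 44 (30.1%) were lower, with a median of -0.18. This share of 30.1% was 44.5% with DESeq2, 19.2% in the 12 libraries of shared numbers, 12.3% there with the replicate block and 10.3% in 1 fit of all 5 groups. The share of higher genes followed the size of the difference between embryo and oocyte. Over genes averaging 10 CPM or more it was 22 of 30 (73.3%) where the embryo-over-oocyte log2 fold change was -3 or below and 56.4% of 140 genes between -3 and -2. It was 36.02% of 633 between -2 and -1, 13.5% of 2939 between -1 and 0, and 2.96% of 3515 between 0 and 1. Across these 7504 genes, which are not independent replicates, the inhibitor and the embryo-over-oocyte log2 fold changes had a Pearson r of -0.48 and a Spearman rho of -0.34, as a description. Over all 12280 genes tested in both, low ones included, these were -0.20 and -0.23. For alpha-amanitin, a blocker of RNA polymerase II, r with the inhibitor's changes was 0.05 and the median log2 change of the higher genes was -0.03. Of its 4 libraries, replicate 3 held only 5371602 counts, against 19545589 to 31540627 in the other 3. In those libraries that drug had 3 higher (0.0228%) and 1 lower (0.00761%) called gene.

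**Figure D2:**
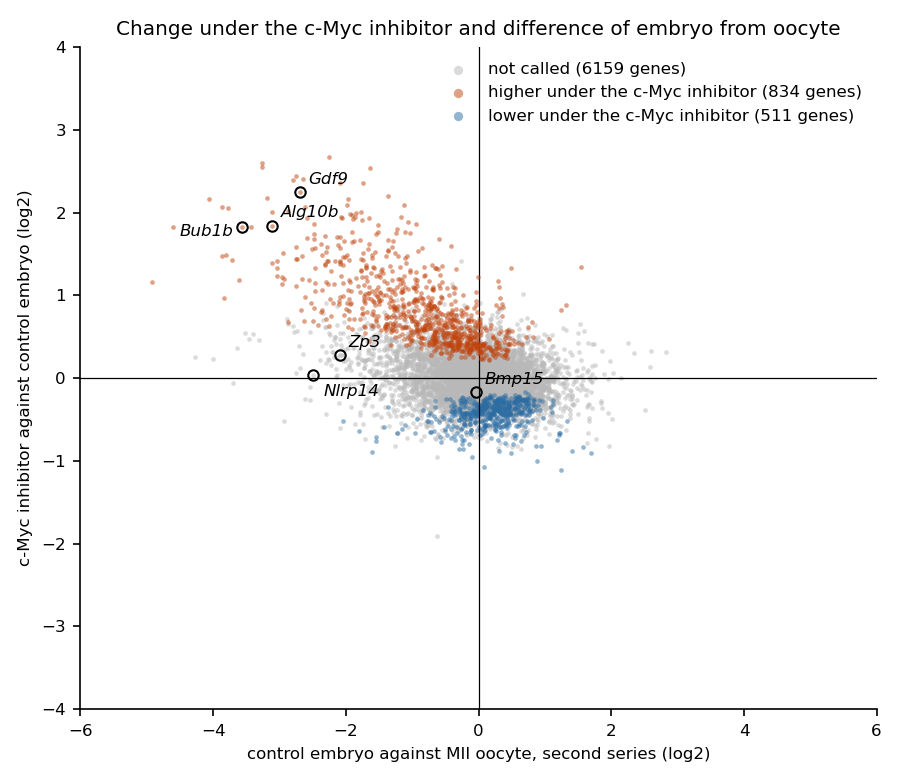
Log2 fold change of c-Myc inhibitor against control embryos (vertical) and of control embryos against MII oocytes in the second title series (horizontal), 1 point per gene averaging 10 CPM or more, coloured by call under the inhibitor, with 1 of 7504 genes outside the axes. Higher genes lie mainly at the upper left, where Gdf9 (2.25 and -2.69), Alg10b and Bub1b are circled, while Nlrp14 and Zp3 also lie at the left but near the zero line.

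Single genes show the size of this. Gdf9 was at 328 ± 92.8 CPM in the second-series control embryos and 2122 ± 169 CPM in oocytes (SD, n = 4 each). The treated embryos, at 1957 ± 305 CPM, were nearer to the oocyte level, though the series were not scaled together. Bub1b, a spindle checkpoint kinase (chromosome 2, 118598211 to 118641591), had 860, 1109.8 and 1363 CPM in treated and 195, 273 and 499 CPM in control libraries. Its embryo-over-oocyte log2 fold change was -3.57 (SE 0.25, edgeR adjusted p = 6.5e-08). H1foo, the linker histone of oocytes, had 1512, 1707 and 2169.9 CPM in treated and 367, 496 and 945 CPM in control libraries, against an oocyte mean of 1291 ± 142 CPM (n = 4). Each of these genes stood well above its controls, with no overlap.

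Some genes of the oocyte did not follow this relation or were not called. Of the 234 genes lower in embryo than in oocyte, 71 were not called under the inhibitor. Of all 234, 206 (88.0%) had the higher estimate in treated embryos, so a missing call is not by itself an exception. Nlrp14, of an oocyte family of the NLR proteins, had an embryo-over-oocyte log2 fold change of -2.499 (edgeR adjusted p = 9.3e-07). It was at 428 ± 134 CPM in treated and 418 ± 203 CPM in control embryos (SD, n = 7 each). Tle6, of the subcortical maternal complex, was at 404 ± 88.1 and 290.2 ± 111 CPM in treated and control embryos (edgeR adjusted p = 0.086). The zona pellucida genes, which encode the egg coat, all had the higher estimate in treated embryos, but not all were called. Zp1 (log2 fold change 1.20, edgeR adjusted p = 0.00045) and Zp2 (0.45, edgeR adjusted p = 0.015) were called. Zp2 lost its call with the replicate block, in the 12 libraries of shared numbers without it, and in 1 fit of all 5 groups. Zp1 lost its call in that last fit only. Zp3 was at 39.4, 47.6 and 60.3 CPM in treated and 33.1, 38.3 and 48.2 CPM in control libraries and was not (0.27, edgeR adjusted p = 0.23). All of them were lower in embryo than in oocyte by the test. Bmp15, the partner of Gdf9, had 1054, 1228 and 1330.1 CPM in treated and 1142, 1285 and 1753 CPM in control libraries (log2 fold change -0.17, edgeR adjusted p = 0.24). Its embryo-over-oocyte log2 fold change of -0.04 was not called either, so Bmp15 is not an exception to the relation. Dppa3 and Nlrp5, maternal-effect genes, were not called (-0.14 and -0.11, edgeR adjusted p = 0.37 and 0.78). They are not given as exceptions either. Their oocyte means, 636 and 934 CPM, were not above the first-series control means of 727 and 1101 CPM, though the series were not scaled together. The 4 genes lower both in embryo than in oocyte and under the inhibitor were Sept7, Fbxw15, Stk31 and Rars, and Rars lost its call when any 1 of 9 libraries was left out.

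Summed levels per library were compared as well. The 14 oocyte markers summed to 10309 ± 862 CPM in treated and 7274 ± 1130 CPM in control libraries (SD, n = 7 each; two-sided exact permutation test, adjusted over 11 library measures, p = 0.00214). The second-series oocytes averaged 12803 CPM. Nearly all of this difference came from Gdf9, H1foo and Zar1, which together summed to 4221 ± 362 CPM in treated and 1241 ± 328 CPM in control libraries. The other 11 markers summed to 6088 ± 596 CPM in treated and 6033 ± 998 CPM in control libraries, and 4 of them, Nlrp5, Bmp15, Ooep and Dppa3, had the lower mean in treated libraries. All genes without a count in any oocyte library summed to 605 ± 50.4 CPM in treated and 979 ± 165 CPM in control libraries (exact permutation adjusted p = 0.00214). In the sum of all 14 markers and in this one every treated library was on one side of every control library. The mean GC content of transcripts, weighted by counts, was 49.4 ± 0.11% in treated and 48.9 ± 0.11% in control libraries (exact permutation adjusted p = 0.00214), also without overlap. The smallest p that 7 against 7 libraries allow is 0.000583 before adjustment. Total counts, genes with a count, the share of the 50 highest genes, the mitochondrial share, transcript length and the cumulus and blood sums did not pass. The sperm sum did (438 ± 74.7 and 330.4 ± 40.1 CPM in treated and control libraries, exact permutation adjusted p = 0.0128).

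**Figure D3:**
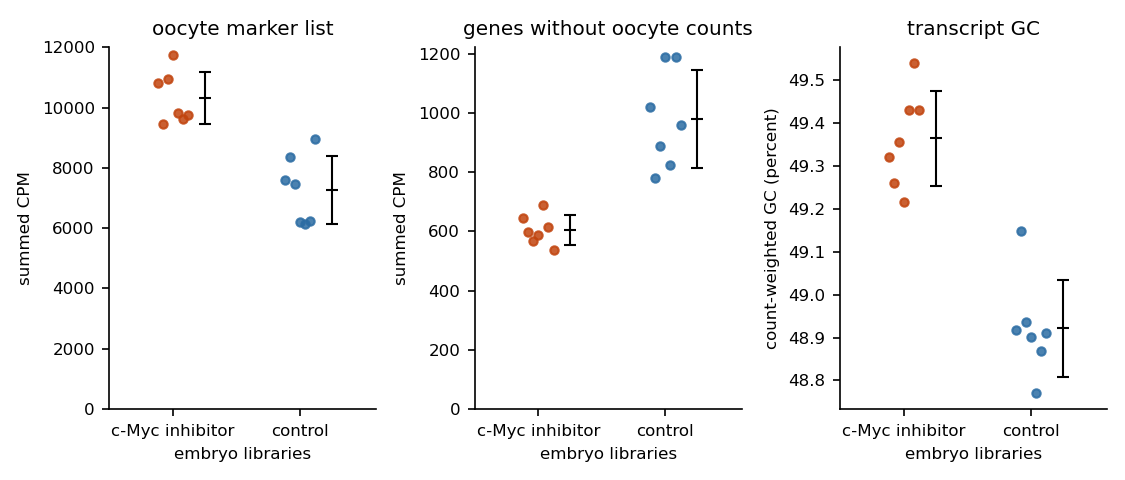
Summed CPM of the 14 oocyte markers, summed CPM of all genes without a count in any oocyte library, and count-weighted transcript GC content, with 1 point per library, c-Myc inhibitor left of control, and bars for the mean and SD (n = 7 each). No treated library overlaps a control library in any panel, and the GC axis spans less than 1 percentage point and does not start at 0.

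Lists of genes of the secretory pathway and the cell surface held larger shares of higher genes than the 6.82% of all genes tested, while their shares of lower genes lay on both sides of the 4.08% of all genes. These shares of all genes include many low ones, and the lists were not matched for level. Of 7230 coding genes averaging 10 CPM or more, 827 were higher and 500 lower. Of the 41 lists, both receptor lists had the largest shares of higher genes, 33.3% and 32.6%. The small lists of polyamine synthesis (4 of 13 genes, 30.8%) and the pentose phosphate pathway (3 of 10, 30.0%) followed. The median log2 fold change of the pentose phosphate list was -0.06. Among axon guidance receptors and ligands 14 of 43 tested genes were higher and 0 lower, with a list median of 0.42, while that of all genes tested was -0.00. They included Plxna1, Neo1, a netrin receptor that was at 72.3, 93.9 and 143 CPM in treated and 15.5, 20.7 and 32.4 CPM in control libraries, and Unc5a, a further netrin receptor (log2 fold change 2.40, edgeR adjusted p = 6.5e-07). Among Notch, Wnt, Hedgehog and TGF-beta receptors and ligands 10 of 30 were higher and 0 lower (list median 0.39), led by Gdf9. Jag1, a Notch ligand (chromosome 2, 137081456 to 137116644), was at 698, 760 and 911 CPM in treated and 299, 403 and 458 CPM in control libraries. Acvr1b, an activin receptor, had a log2 fold change of 1.53. Among extracellular matrix genes and integrins 9 of 37 were higher, with Lamc1, Dse and Lamb1, another laminin chain (1.04), and 2 lower. Among cadherins, catenins and junction genes 7 of 29 were higher, with Fat1, Cdh1, the E-cadherin that later holds the embryo's cells together (1.07), and Celsr1, a cadherin of planar polarity (1.49), and 1 lower. In the egg coat and exocytosis list 6 of 27 were higher, among them Astl, the protease that hardens the egg coat after fertilisation (1.59), and Plat, the tissue plasminogen activator (0.69), and 2 lower.

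Inside the secretory pathway the counts were 11 higher and 2 lower of 47 COPI, COPII and Golgi genes (23.4% and 4.26%) and 9 and 1 of 38 N-glycan genes (23.7% and 2.63%). Lysosome genes had 8 and 1 of 38 (21.1% and 2.63%) and autophagy genes 8 and 2 of 38 (21.1% and 5.26%). Over all genes tested the shares were 6.82% and 4.08%. Tmed2, a cargo receptor of transport vesicles, rose by 1.18 and Kdelr2, which returns proteins to the endoplasmic reticulum, by 1.04 on the log2 scale. Stt3a and Stt3b, the catalytic subunits that transfer the sugar tree, rose by 1.15 and 0.54. Npc1, which exports cholesterol from lysosomes, was at 173, 185 and 253 CPM in treated and 40.04, 71.2 and 92.3 CPM in control libraries (log2 fold change 1.52, edgeR adjusted p = 4.3e-08). Sec61a1, the channel through which proteins enter the endoplasmic reticulum, rose by 0.77, but only 3 of the 35 genes of its list, that of the signal recognition particle and the translocon, were higher (list median 0.05). Lipid lists were mixed: 4 of 23 sterol genes were higher, with Scap and Insig1, which control the sterol sensor SREBP (0.98 and 0.82), and 2 were lower. Of the fatty acid and phospholipid genes 5 of 31 were higher and 0 lower. Lists overlap, and Npc1 and Gdf9 each count in more than 1.

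**Figure D4:**
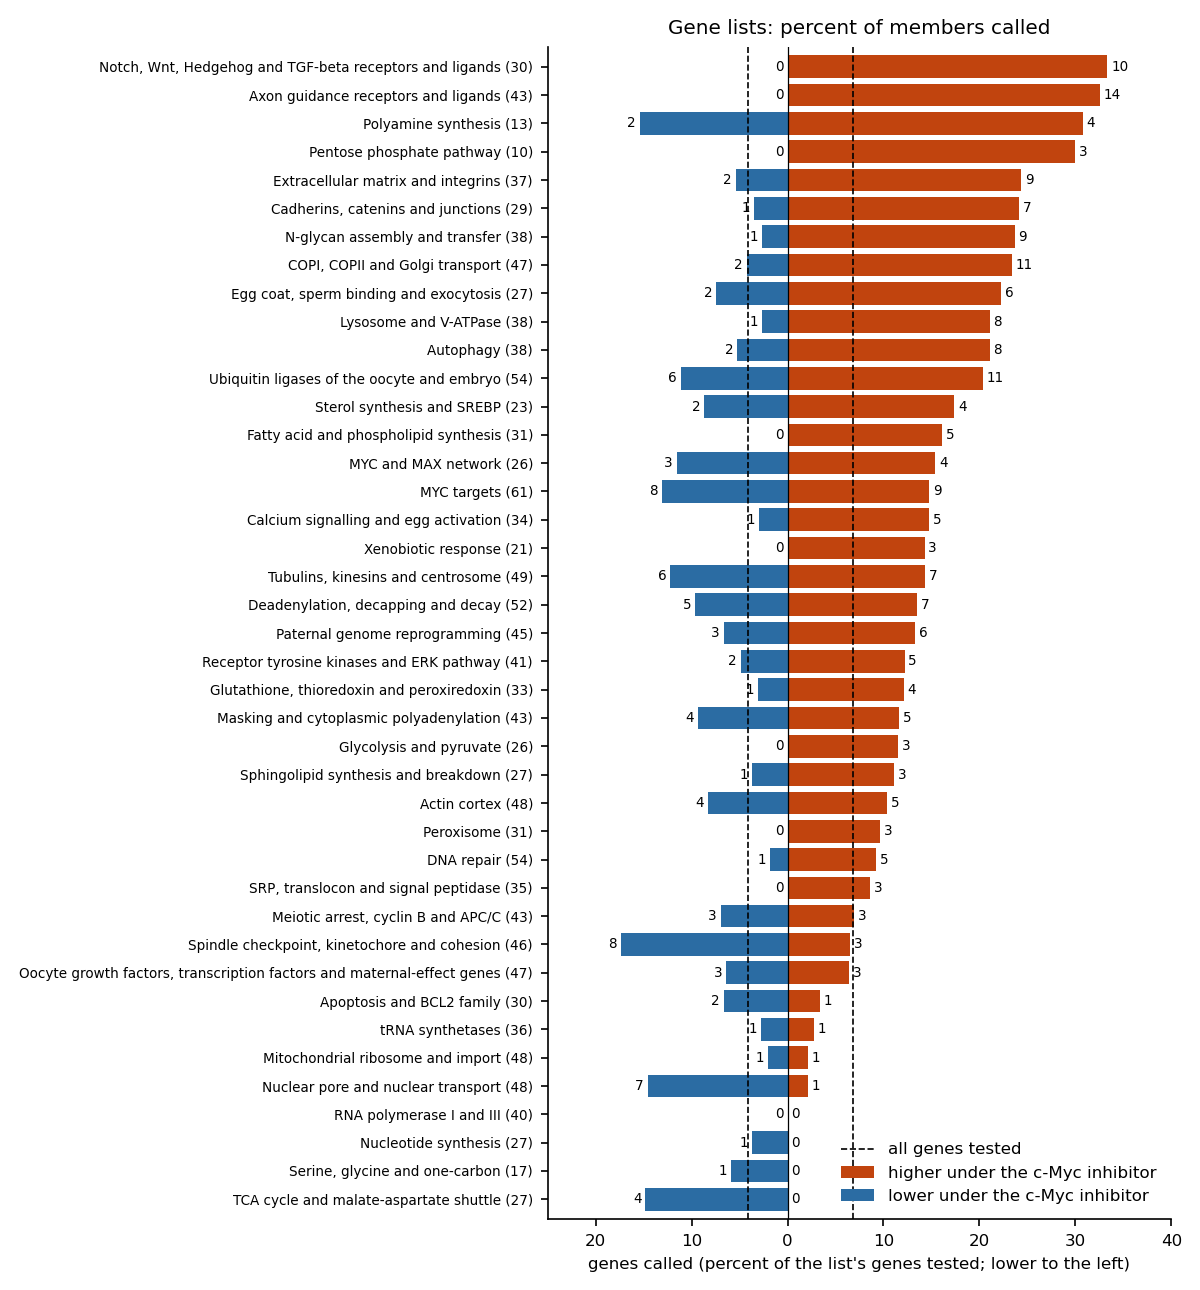
Percent of each list's tested genes called higher (bars to the right) or lower (bars to the left) under the inhibitor, with the number of genes tested after each name, the number called at each bar's end, and dashed lines at the 6.82% and 4.08% of all genes tested. Both receptor lists stand at the top, followed by polyamine synthesis, pentose phosphate, matrix, junction, glycan and Golgi lists, and lists of the tricarboxylic acid cycle, nucleotide synthesis, RNA polymerase I and III and the nuclear pore at the bottom.

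Falls outnumbered rises in 6 of the 41 lists, and 3 of these hold the larger numbers. Of 48 nuclear pore and transport genes 7 were lower (14.6%, against 4.08% of all genes) and 1 higher (2.08%, against 6.82%), with a list median of -0.09. Lower ones included Kpna3 and the pore subunits Nup54 and Nup35, which fell by 0.48 and 0.58. Of 46 spindle checkpoint, kinetochore and cohesion genes 8 were lower (17.4%) and 3 higher (6.52%), with a list median of -0.10. In this list Bub1, a checkpoint kinase, fell by 0.72 while its relative Bub1b rose by 1.82, and Espl1, the separase that cuts cohesin, rose by 0.81. Of 27 genes of the tricarboxylic acid cycle and the malate-aspartate shuttle 4 were lower (14.8%) and 0 higher. Calls in this cycle were not all stable: Ogdh lost its call when any 1 of 7 libraries was left out, and Sdha when any 1 of 3 was. Got1, an aspartate aminotransferase, was at 6.75, 12.0 and 16.8 CPM in treated and 20.2, 25.6 and 27.8 CPM in control libraries (log2 fold change -1.07, edgeR adjusted p = 0.0015). Ccnb1, the cyclin B of mitotic entry, had 399, 544 and 589 CPM in treated and 663, 704 and 883 CPM in control libraries (log2 fold change -0.56, edgeR adjusted p = 0.00028). Its list of 43 meiotic arrest and cyclin genes had 3 higher (6.98%), led by Mos, the kinase of meiotic arrest (2.05), and 3 lower (6.98%). The 40 genes of RNA polymerases I and III had 0 calls in either direction by edgeR. Among 36 tRNA synthetases and 48 genes of the mitochondrial ribosome and import, 1 was higher and 1 lower in each.

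Metabolic and stress lists were small or balanced, and their counts are to be read against 6.82% higher and 4.08% lower of all genes tested. In the pentose phosphate list 3 of 10 were higher and 0 lower, with a list median of -0.06. Taldo1, a transaldolase, was at 31.1, 41.9 and 55.8 CPM in treated and 2.68, 5.04 and 13.6 CPM in control libraries (log2 fold change 2.68, edgeR adjusted p = 7.2e-07). Among 27 sphingolipid genes 3 were higher, with Cers2, a ceramide synthase (2.54), and 1 lower. Among 33 glutathione, thioredoxin and peroxiredoxin genes 4 were higher, with Slc7a11 and Slc3a2, the 2 subunits of the cystine carrier (0.77 and 0.87), and 1 lower, Prdx1, a peroxiredoxin (-0.86). In the xenobiotic list 3 of 21 were higher, Por, the reductase that feeds cytochrome P450 enzymes (1.76), Abcb1b, a drug exporter (1.06), and Akr7a5 (2.36), and 0 were lower. In the deadenylation and decay list 7 of 52 were higher (13.5%) and 5 lower (9.62%). Dcp1a, a decapping factor, was at 1147, 2010.4 and 2555 CPM in treated and 438, 606 and 1010.2 CPM in control libraries, and Upf1, the helicase of nonsense-mediated decay, rose by 1.21. The oocyte transcription factor and maternal-effect list itself had 3 higher and 3 lower of 47 (6.38% each) and a median of -0.02. Gdf9, H1foo and Zar1 were its 3 higher members.

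Lists of the cytoskeleton, of signalling and of the nucleus held calls in both directions. Over all genes tested, 6.82% were higher and 4.08% lower. Several shares were not far from these: DNA repair had 9.26% higher and 1.85% lower, the peroxisome 9.68% higher and the actin cortex 10.4% higher. Ubiquitin ligases had 20.4% higher and 11.1% lower. Of 49 genes of tubulins, kinesins and the centrosome 7 were higher, with Tubb6 and Tubb4b, beta-tubulins (0.71 and 0.40), and 6 lower, with Tubgcp5 of the gamma-tubulin ring (-0.75). Of 48 genes of the actin cortex 5 were higher and 4 lower, with Ect2, a regulator of cytokinesis (-0.63). Rdx, which ties actin to the membrane, was at 1952, 2386 and 2547 CPM in treated and 1128, 1506 and 1856 CPM in control libraries (0.62, edgeR adjusted p = 6.2e-05). Of 41 genes of receptor tyrosine kinases and the ERK pathway 5 were higher, with Mos, Map2k2, a kinase upstream of ERK (1.35), and Fgfr2, a fibroblast growth factor receptor (1.13), and 2 lower. Of 34 genes of calcium signalling and egg activation 5 were higher, with Atp1b3, a subunit of the sodium-potassium pump (1.15), and 1 lower, Calm2, a calmodulin gene (-0.50). Of 54 ubiquitin ligase genes 11 were higher and 6 lower, the lower ones with Rnf4 and Dcaf1 (-0.45 each). March6, a ligase of the endoplasmic reticulum, was at 427, 458 and 538 CPM in treated and 220, 249 and 306 CPM in control libraries (0.86, edgeR adjusted p = 5.5e-08). Of 45 genes of paternal genome reprogramming 6 were higher, with Trim28, a corepressor that protects imprints (1.06), and 3 lower. Uhrf1, which maintains DNA methylation, was at 1178, 1305 and 1445 CPM in treated and 780, 872 and 1012 CPM in control libraries (0.54, edgeR adjusted p = 4.2e-06). Of 43 masking and polyadenylation genes 5 were higher, with Zar1, a maternal RNA-binding protein (1.02), and Igf2bp2, another (0.62), and 4 lower. Of 54 DNA repair genes 5 were higher and 1 lower. Xrcc1, a scaffold of single-strand break repair, was at 25.4, 30.2 and 40.9 CPM in treated and 0.939, 8.02 and 18.5 CPM in control libraries (1.83, edgeR adjusted p = 0.0011). Smaller counts were found for polyamine synthesis (4 higher and 2 lower of 13), glycolysis (3 and 0 of 26), the peroxisome (3 and 0 of 31), apoptosis (1 and 2 of 30), nucleotide synthesis (0 and 1 of 27) and serine and one-carbon metabolism (0 and 1 of 17).

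The lists built on c-Myc itself held calls in both directions. Of 61 MYC targets tested 9 were higher (14.8%, against 6.82% of all genes) and 8 lower (13.1%, against 4.08%), with a list median of 0.03. Called shares are larger among abundant genes: of 7230 coding genes averaging 10 CPM or more, 827 were higher and 500 lower. The list was not matched for level. The higher ones included Srm and Odc1, enzymes of polyamine synthesis (1.32 and 0.58), Phb2, a prohibitin (0.70), and Eif3b, a translation initiation factor (0.67), and the lower ones Ncl, the nucleolar protein nucleolin (-0.37), and Eif4e, the cap-binding protein (-0.41). Of 26 genes of the MYC and MAX network 4 were higher, led by Mlx, a Max-like factor (1.76), and Mxd1, a competitor for Max (0.42), and 3 lower. The E-box CACGTG, which reads alike on both strands, was looked for in RefSeq promoter windows (GRCm38.p6, 250 bases before to 50 after a start). It stood in a window of 83 of 704 higher genes with a window (11.8%), 61 of 414 lower genes (14.7%), 1080 of 9423 tested genes (11.5%) and 12 of 54 MYC targets (22.2%), and in 7.15% of all 32851 windows. The windows nearest to the starts of Ttyh3 and Furin, and of Dnaja1, Ubl3 and Rbm7, among the named rises and falls with the smallest p, held none. The nearest window of Fat1 lies 14761 bases from its annotated start, so none stands for that start.

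Of the 9423 tested genes with a promoter window 1080 held an E-box (11.5%). Of the 17 called MYC targets 16 had a window, and 5 of these held an E-box, 1 of them higher and 4 lower. Their 30-base stretches around it are printed because they let the reader set motif and direction side by side, with CACGTG in capitals and the strand of the gene.
Prmt1 (chr7:44986584-44986613, minus strand): acccaatcgtcaCACGTGctgggtgagaca
Eif4e (chr3:138527028-138527057, plus strand): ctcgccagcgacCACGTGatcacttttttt
Wdr43 (chr17:71616220-71616249, plus strand): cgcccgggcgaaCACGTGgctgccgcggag
Pes1 (chr11:3963965-3963994, plus strand): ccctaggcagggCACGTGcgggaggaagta
Bmi1 (chr2:18676791-18676820, plus strand): gaatgaggggagCACGTGacccggcggggg
The printed motif begins 181 bases before the start in Prmt1, 228 before in Eif4e and 215 before in Bmi1, and 17 and 2 bases after it in Wdr43 and Pes1. Eif4e holds the motif 2 times, and 1 of these is printed. Prmt1, an arginine methyltransferase, was the higher one, at 15.4 ± 4.78 CPM in treated and 3.85 ± 2.78 CPM in control libraries (SD, n = 7 each; log2 fold change 2.00, SE 0.39, edgeR adjusted p = 0.0013). Wdr43 and Pes1, both ribosome assembly factors, fell by 0.27 and 0.36 on the log2 scale, and Bmi1, a Polycomb protein, by 0.23. These genes share the motif and differ in direction, and a match is not a binding site.

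The protein that a gene encodes went with its direction. Coding sequences were translated, and a protein was said to have a hydrophobic stretch, the kind found in signal peptides and membrane spans, where a window of 19 residues had a mean Kyte-Doolittle score of at least 1.6. Such a stretch was found for 472 of 879 higher coding genes (53.7%), 98 of 519 lower ones (18.9%) and 3682 of 11292 tested ones (32.6%). Base composition went with it too: median GC at the last position of codons was 64.9% in higher, 48.4% in lower and 59.1% in all coding genes. The stretch and the composition were therefore crossed, over genes averaging 10 CPM or more. Genes were split by GC at the last codon position into a low, a middle and a high class of equal size. In the low class 12.3% of 609 genes with a stretch and 2.499% of 1801 without were higher, in the middle class 20.3% of 699 and 6.37% of 1711, and in the high class 26.8% of 838 and 14.7% of 1572. The share of higher genes was thus larger with a stretch in each class and larger at higher GC in both classes.

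**Figure D5:**
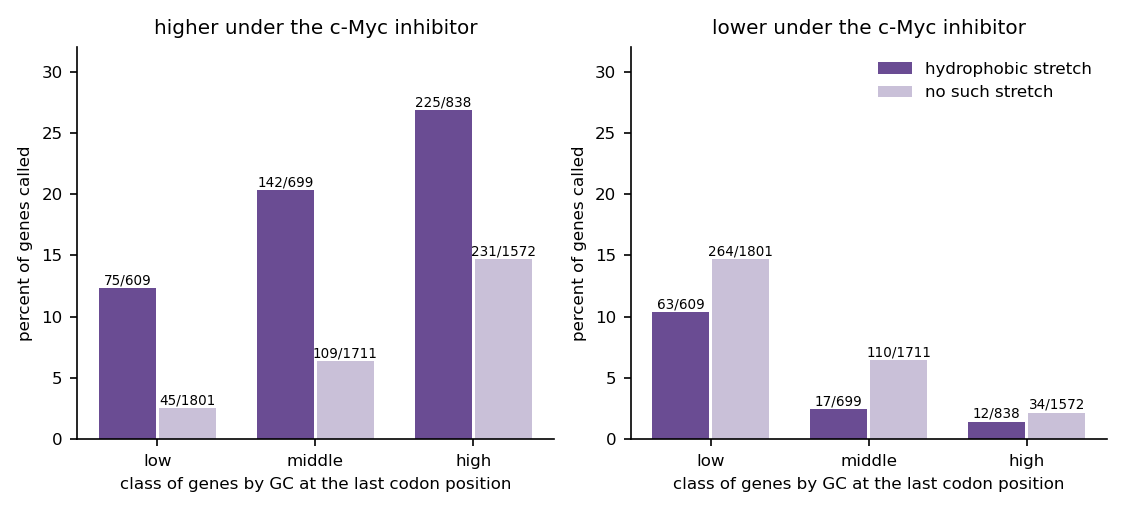
Percent of coding genes called higher (left) or lower (right) under the inhibitor, by class of GC at the last codon position, for proteins with a hydrophobic stretch (dark, left bar) and without (light, right bar), with called and total genes over each bar. With a stretch, 12.3%, 20.3% and 26.8% were higher in the low, middle and high classes, against 2.499%, 6.37% and 14.7% without.

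Genes without a stretch in the low GC class were lower most often, at 14.7% of 1801, against 1.43% of the 838 genes with a stretch in the high GC class. Among genes whose embryo-over-oocyte log2 fold change was -1 or below, 219 of 385 with a stretch (56.9%) and 107 of 392 without (27.3%) were higher, and above -1 the shares were 12.7% of 1761 and 5.92% of 4692. The mean GC of counts differed between the groups of libraries, as given above. With an offset per library for GC, 694 genes were higher and 404 lower, of which 632 and 279 had the same call without the offset, and the share of higher genes with a stretch was 60.2%.

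Untranslated 3′ ends differed as well. Their median GC was 47.9% in higher genes, 38.4% in lower ones and 43.8% in all, and their median lengths were 1064.5, 1183 and 992 bases. The letters TTTTAT, the core of the cytoplasmic polyadenylation element through which stored oocyte RNA is switched on, were in the 3′ end of 54.2% of higher, 74.9% of lower and 55.5% of all genes, searched on the transcript strand. It stood at 0.939, 1.38 and 1.04 per 1000 bases. TGTANATA, the Pumilio motif, was at 0.250, 0.322 and 0.248 per 1000 bases, and TATTTAT, an AU-rich motif, at 0.251, 0.339 and 0.290. All of these motifs are rich in A and T and went with the lower GC of the lower genes, and their part apart from GC was not tested.

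The last TTTTAT of the 3′ end is printed in 30 bases for 4 higher genes and 1 lower gene of oocyte and egg, with the motif in capitals, from GENCODE vM21 transcripts (GRCm38).
Gdf9, higher (chr11:53437854-53437883, plus strand): agagtgctgtggTTTTATgtgacggaagaa
H1foo, higher (chr6:115950157-115950186, plus strand): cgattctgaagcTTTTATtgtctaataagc
Bub1b, higher (chr2:118641553-118641582, plus strand): tttcactgtgtaTTTTATaataaaatagtt
Plat, higher (chr8:22782508-22782537, plus strand): acaagaatgtgtTTTTATagttacacaggg
Ccnb1, lower (chr13:100779069-100779098, minus strand): tatatgggttcaTTTTATcaacagtattcc
The motif ends 33 bases before the end of the transcript in Gdf9, 57 in H1foo, 21 in Bub1b, 319 in Plat and 431 in Ccnb1, whose 3′ end holds it 3 times. Mos, which was higher, has none in its 126-base 3′ end. Higher and lower genes thus both carry the motif, and among the printed higher genes its place ranges from 21 to 319 bases before the end.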

How the data were processed

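The authors deposited raw RNA-seq counts, whole numbers for 55401 Ensembl gene IDs in 26 libraries, and the 14 libraries of the c-Myc inhibitor series were compared here. Per the submitters' processing notes, the tools were cutadapt 1.7.1 and STAR 2.5.0a and the build GRCm38. How reads were counted, with which strand setting and annotation, is not stated in the labels, so overlapping and antisense genes and near-identical gene copies are uncertain. Symbols, coordinates and transcript sequences came from GENCODE vM21 (GRCm38), which named 55141 IDs, and promoter windows from RefSeq (GRCm38.p6).

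Groups were taken from the labels. The tests used edgeR 4.0.16 under R 4.3.3 (TMM scaling, filterByExpr with a minimum count of 10 and a minimum total of 15, quasi-likelihood F test, Benjamini-Hochberg over all genes kept, threshold 0.05), without covariates. The 12 libraries of the second series had a fit of their own. Levels are CPM computed here on TMM-scaled totals in the gene results, and on raw totals in the sums per library. Standard errors are the log2 fold change divided by the root of F. Library measures had two-sided exact permutation tests. Alternatives were DESeq2 1.42.0, limma 3.58.1 (voom), other scalings and filters, a GC offset in 20 bins, a replicate block, 1 fit of all groups, and each library left out. The fit was tested on simulated data, where it recovered 58.5% of 200 genes changed by 1 on the log2 scale and made 6 false calls. A gene that was not called may therefore still differ. Same-numbered treated and control libraries showed no clear shared deviation, which does not exclude pairing, and the numbers were not used as pairs in the main fit. Limits of a count of 0 are 3 counts and cover counting error only.

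The members, the 41 gene lists (1718 symbols, 15 without a match, 1459 genes tested) and the tests were chosen with earlier results of these data known. The rule for named genes took the 12 higher and 12 lower called genes with the smallest p among those averaging 10 CPM or more whose groups did not overlap, with predicted genes and pseudogenes left out, then up to 3 called members with the smallest p per list, and always Myc, Mycn, Max, Gdf9, Bmp15, Zp1, Zp2, Zp3, Nlrp5 and Dppa3. Genes named outside this rule (Nlrp14, Tle6, Sept7, Fbxw15, Stk31, Odc1, Ncl, Eif4e, Prmt1, Wdr43, Pes1, Bmi1, Odf2 and those of the other observations) and the printed 3′ sites and E-boxes were chosen after their values were seen. Some genes that the rule selects are not reported here. The promoters that the rule selects held no E-box and are not printed. One representative coding transcript per gene was used for GC, motifs and hydrophobic stretches.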

Additional observations from a re-analysis of the deposited data

Results flagged for a closer look

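In 84 groups of 7 libraries (11 library measures and the always-named and first 24 named genes, in treated and in control libraries) 8 had 1 library far from the others by Dixon's test, which flags about 1 in 20 groups by chance. Among treated libraries these were replicate 7 for Alg10b (414 CPM, the highest) and for the blood marker sum (0.0784 CPM, the only treated library above 0). Among control libraries these were replicate 2 for the cumulus and granulosa sum (47.8 CPM) and for Fat1 (230.5 CPM), replicate 8 for Ttyh3 (82.2 CPM) and for Cwf19l2 (188 CPM), replicate 1 for Dse (9.94 CPM) and replicate 5 for Rbm7 (205 CPM). The named genes among them kept their calls when that library was left out.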

How the results depend on the processing

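With each library left out in turn, 762 to 901 genes were higher and 391 to 571 lower under the c-Myc inhibitor. In the second series 146 to 218 genes were lower and 63 to 122 higher in control embryos than in oocytes, with the lowest counts without oocyte replicate 4 (146 lower) and without oocyte replicate 1 (63 higher). Of the genes lower in embryo than in oocyte 66.0% to 72.4% were then higher under the inhibitor, but 45.6% with DESeq2 for embryo against oocyte and 53.4% in the fit of all groups. The count of lower genes moved to 859 with DESeq2 and 115 in 1 fit of all 5 groups, where 266 were higher. DESeq2 gave 481 lower and 286 higher genes for embryo against oocyte.

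With the replicate number as a block, in the 12 libraries whose numbers both groups share, 701 genes were higher and 279 lower. In the same libraries without the block, a setting chosen after seeing the data, the counts were 754 and 336. Deviations of same-numbered libraries correlated between -0.026 and 0.041 and 2 of 6 treated libraries correlated best with their own number. The check ran over all tested genes, whose median level was 15.6 CPM, so noise of low genes may hide a shared origin. Pairing is neither shown nor excluded.

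Across the alternatives for the inhibitor fit other than leaving out single libraries, 84.7% to 97.3% of higher genes had a lower mean in embryo than in oocyte and 52.3% to 65.5% had a hydrophobic stretch. The share of genes higher in embryo than in oocyte that were lower under the inhibitor was 44.5% with DESeq2, 12.3% with the block, 19.2% in its libraries without it and 10.3% in the fit of all groups. Higher genes were 62.6% of all calls, and 55.1% with DESeq2.

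The log2 fold change of Max, which was not called, changed sign: it was -0.0133 with DESeq2, -0.0134 with the scaling of DESeq2, -0.00900 with raw totals, -0.00851 with at least 50 counts in 7 libraries, -0.0180 with the GC offset, -0.00662 in the fit of all groups, and -0.0424 to 0.0407 with a library left out. Library differences that did not pass changed sign too, with ranges of -0.0618 to 0.285 percentage points for the 50 highest genes, -15.6 to 12.7 bases for transcript length and -6.21 to 0.329 CPM for the cumulus sum. The mitochondrial share passed without control replicate 2 (-0.178 percentage points), and the blood sum without control replicate 1, 5 or 6 (-0.321 CPM). Dera, Rars, Mrps14, Ogdh and Atic lost their call without 5 or more of the 14 libraries in turn. Depth limits genes near 0.1 CPM, among them Myc and Mycn.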

Other observations

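The X chromosome had few rises: 7 of its 416 tested genes were higher (1.68%) and 23 lower (5.53%), against 6.82% and 4.08% of all genes tested. Among the autosomes the share of higher genes ran from 3.97% (chromosome 3) to 9.44% (chromosome 5). The 19 genes lower by at least 2-fold were mostly at low levels. Hexim1, which holds the elongation kinase P-TEFb inactive, had no count in the 7 treated libraries and a mean of 4.36 CPM in control libraries. Gadd45g, a growth arrest gene, had no count in the treated libraries and a mean of 2.89 CPM in the controls. Hspa1b, an inducible Hsp70, was at 2.14 CPM in treated and 9.09 CPM in control libraries, and Got1 had the highest level of the 19 genes. Ncor1, a corepressor, Slbp, which binds histone RNA, and Tiam1, an activator of Rac, were among the 44 genes higher in embryo than in oocyte and lower under the c-Myc inhibitor, at 221, 930 and 1867 CPM in treated and 275, 1105 and 2244 CPM in control embryos.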
